A study of Homo sapiens with 20 samples.

Results

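The genes described here are the CD1 family (CD1A, CD1B, CD1C, CD1D and CD1E) and the surface markers CD2, CD4, CD7, CD8A and CD8B, which together are used to place a T cell leukaemia along thymocyte development. They were chosen by name, as 10 of the 19775 genes that had a probe set of their own on the array (Affymetrix Human Genome U133 Plus 2.0), and all 10 were among the 13787 genes that passed the filter on low values. That filter asked for a log2 intensity of at least 5 on at least 2 arrays. The members had 16 probe sets, of which 13 passed the filter, and a gene's level is that of its brightest probe set by mean unless another is named. The data were 20 arrays from 5 established human lines of T-ALL (acute lymphoblastic leukaemia of T cells), namely CEM, DND41, HPB-ALL, T-ALL1 and KOPT-K. Cells of each line received either the NEMO-binding domain (NBD) peptide or a control peptide for 16 h, and every combination of line and peptide had 2 arrays. The NBD peptide blocks canonical NF-kB signalling by keeping NEMO (IKKγ) from the catalytic subunits of the IkB kinase. The labels give its dose as 100 µM in the descriptions and as 100 mM in the source names, so nothing here rests on the dose. The labels name no separate cultures behind the 2 arrays of a group, so the p-values measure the spread between arrays, which may be technical. Each line is a single leukaemia grown in culture and stands for no patient group.

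CD1 proteins resemble MHC class I molecules, pair with beta-2-microglobulin (B2M) and present lipids instead of peptides. CD1a, CD1b and CD1c reach the cell surface and present to T cells, CD1e stays inside the cell and helps to load lipids, and CD1d presents to natural killer T cells. In the thymus, CD1a marks the cortical stage, at which most cells carry both CD4 and CD8, and it is lost as cells mature. CD4 and CD8 (a dimer of CD8A with itself or with CD8B) are the coreceptors for MHC class II and class I and bring the kinase LCK to the T cell receptor. CD7 is among the first T lineage glycoproteins to appear, and CD2, the adhesion receptor for CD58, follows early. The CD1 genes lie next to each other on chromosome 1, and CD8A and CD8B are neighbours on chromosome 2.

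CD1E had the widest range of levels over the lines. CD1C, of the same family, had another order of lines, and CD2 was below the filter level in DND41 only. The promoter windows of CD1E, CD1C and CD2 are therefore shown. They are RefSeq sequences of build GRCh38.p14, each 300 bases on the plus strand, most of them before the start of transcription, and lie at chr1:158353644-158353943 (CD1E), chr1:158289673-158289972 (CD1C) and chr1:116754180-116754479 (CD2). Capitals mark E-boxes (CANNTG), the motif read by E proteins such as TCF3 and TCF12.
CD1E: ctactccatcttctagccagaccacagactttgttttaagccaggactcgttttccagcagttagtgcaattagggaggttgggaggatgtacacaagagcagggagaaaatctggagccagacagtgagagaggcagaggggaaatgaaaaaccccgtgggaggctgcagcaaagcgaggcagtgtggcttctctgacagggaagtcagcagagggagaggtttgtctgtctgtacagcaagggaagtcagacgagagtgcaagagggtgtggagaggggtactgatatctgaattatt
CD1C: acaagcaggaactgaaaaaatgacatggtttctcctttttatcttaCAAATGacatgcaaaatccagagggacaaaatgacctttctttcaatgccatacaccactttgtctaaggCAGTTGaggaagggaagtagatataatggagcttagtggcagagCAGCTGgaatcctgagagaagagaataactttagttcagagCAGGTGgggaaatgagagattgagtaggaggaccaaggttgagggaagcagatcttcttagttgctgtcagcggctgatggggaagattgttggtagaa
CD2: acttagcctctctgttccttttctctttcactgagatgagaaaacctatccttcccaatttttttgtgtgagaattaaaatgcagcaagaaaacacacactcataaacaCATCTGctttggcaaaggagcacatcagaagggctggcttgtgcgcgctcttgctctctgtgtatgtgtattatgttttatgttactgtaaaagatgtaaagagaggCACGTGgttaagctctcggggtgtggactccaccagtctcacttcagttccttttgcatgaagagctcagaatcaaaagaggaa
The CD1E window held no E-box, the CD1C window held 4 and the CD2 window held 2. Of the members, 6 had windows in the RefSeq table, 11 windows in all, and 8 of these 11 held an E-box, beside 68.7% of all 35116 windows. A RUNX motif (TGTGGT, both strands) was in 2 of the 11 windows, those of CD1E and of 1 CD1A start, beside 13.1% of all windows. A GATA motif (AGATAA) was in 2, those of CD1C and the same CD1A start, beside 10.3%, and a TCF motif (CTTTGA) in 1, a CD1D start, beside 12.9%. An NF-kB motif (GGG and CC parted by any 5 bases) was in 3 of the 11, all of them CD8A starts, beside 58.7% of all windows. Matches of this kind describe letters in a window and not bound sites. CD1B, CD4, CD7 and CD8B are named without a window.

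The T cell label of the samples held in that all 7 T cell markers tested (CD3D, CD3E, CD3G, CD247, LCK, ZAP70 and TRAT1) were above the filter on all 20 arrays. The filter alone does not set T cells apart, since the B cell marker CD22, the dendritic marker BATF3 and the NK cell marker NCAM1 were above it on all 20 as well. Arrays of a group correlated at r = 0.992 to 0.998 over genes. The deposited values fell into a set with up to 7 decimals and mean intensities of 386.9 to 396.1 (T-ALL1 and KOPT-K) and a set with 2 decimals and means of 341 to 347.7 (CEM, DND41 and HPB-ALL). These may be separate normalization runs, which no source states. Levels were therefore tested only between lines of the same set, which gives 4 line contrasts, and are set side by side without a test otherwise. The log2 difference between 3′ and 5′ actin probe sets, a sign of RNA integrity, was 1.03 ± 0.05 (SD, n = 2) with NBD in T-ALL1 and 3.16 and 2.05 on the T-ALL1 control arrays, while the other 8 groups averaged between 0.85 and 1.76.

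The 10 genes differed widely between the lines. With the control peptide, all 10 genes ranged over at least 2 on the log2 scale between the highest and the lowest line, a range that 14.6% of all genes tested reached. Over the 4 line contrasts within a set, 36 of the 40 gene-contrast pairs passed limma's test with control peptide, beside 48.2% of all such pairs (54.2% for KOPT-K against T-ALL1, 42.0% for DND41 against CEM, 49.0% for HPB-ALL against CEM and 47.5% for DND41 against HPB-ALL), and 36 did so with NBD, beside 47.3%. Of these, 35 passed with both peptides and with the same sign. In bulk RNA, fewer cells with a transcript and less of it per cell cannot be told apart.

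CD1E showed the widest range of the family, also with levels under the filter level set to it (6.04, beside 5.56 for CD1B). Its control levels were 11.10 and 10.98 on the 2 KOPT-K arrays, 10.13 and 10.05 in DND41, 9.73 and 9.50 in HPB-ALL, 6.25 and 6.66 in CEM and 2.87 and 2.99 in T-ALL1 (log2 intensity). No pair of neighbours in that order overlapped over the 4 arrays of each line, and T-ALL1 stayed below the filter level of 5. With T-ALL1 set to the filter level, KOPT-K exceeded T-ALL1 by at least 6.04 on the log2 scale (limma adjusted p = 4.73e-15 for the measured levels). DND41 exceeded HPB-ALL by only 0.47 ± 0.14 (limma adjusted p = 0.0104), a call that was lost without DND41 control array 1 (adjusted p = 0.0634) or HPB-ALL control array 2 (adjusted p = 0.104). The other CD1E probe set kept the order of the lines but compressed it, with control levels between 8.62 ± 0.52 in KOPT-K and 6.02 ± 0.19 in T-ALL1, a difference of 2.60 between KOPT-K and T-ALL1, and DND41 exceeded HPB-ALL by 0.28, which did not pass (limma adjusted p = 0.386).

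CD1B, which binds lipids with long acyl chains, followed a similar order. Its control level was 10.56 ± 0.05 in DND41, 9.53 ± 0.28 in KOPT-K, 9.36 ± 0.08 in HPB-ALL, 5.56 ± 0.06 in CEM and 4.54 ± 0.29 in T-ALL1 (SD, n = 2 each). KOPT-K and HPB-ALL overlapped, and T-ALL1 again lay below the filter level. HPB-ALL exceeded CEM by 3.80 ± 0.14 (log2 difference; limma adjusted p = 3.62e-11), and KOPT-K exceeded T-ALL1 by at least 4.53 (adjusted p = 1.3e-12 for the measured levels). CD1A, the cortical marker, stood out in DND41 alone. Its control arrays gave 9.92 and 9.87 there, against 7.08 and 7.07 in CEM, 7.04 and 6.96 in HPB-ALL, 7.26 and 6.68 in KOPT-K and 5.84 and 5.50 in T-ALL1. The middle 3 of these lines overlapped, and HPB-ALL and CEM differed by -0.070 ± 0.14 (limma adjusted p = 0.73).

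CD1C ran the other way in DND41. KOPT-K was highest with a control level of 8.63 ± 0.19, followed by CEM at 7.64 ± 0.01, HPB-ALL at 7.19 ± 0.03, T-ALL1 at 5.68 ± 0.34 and DND41 at 5.41 ± 0.31, the last 2 overlapping. DND41 was below CEM by a log2 difference of -2.23 ± 0.15 (limma adjusted p = 2.78e-08), although it was highest in CD1A, CD1B and CD1D. The smaller gap of HPB-ALL below CEM (-0.45, limma adjusted p = 0.026) was lost when any of the 4 control arrays behind it was left out (adjusted p = 0.0729 to 0.102). CD1D was 7.99 ± 0.001 in DND41, 7.74 ± 0.05 in KOPT-K, 7.50 ± 0.48 in T-ALL1, 5.85 ± 0.18 in CEM and 5.10 ± 0.13 in HPB-ALL. KOPT-K and T-ALL1 overlapped, and their difference of 0.24 ± 0.19 did not pass (limma adjusted p = 0.318), whereas it was 0.58 without T-ALL1 control array 1 (adjusted p = 0.0144) and 1.18 with the actin difference as a covariate (adjusted p = 0.0108).

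The coreceptors split the lines differently. HPB-ALL carried the most CD4, with control arrays at 9.18 and 9.31, followed by CEM at 7.05 ± 0.05. KOPT-K at 6.22 ± 0.16, T-ALL1 at 6.15 ± 0.02 and DND41 at 5.98 ± 0.34 overlapped with their neighbours in that order. HPB-ALL exceeded CEM in CD4 by 2.20 ± 0.13 (log2 difference, limma adjusted p = 5.85e-09). CD8A was 10.01 ± 0.06 in KOPT-K, 9.60 ± 0.03 in HPB-ALL, 7.97 ± 0.24 in T-ALL1, 6.87 ± 0.16 in CEM and 3.35 ± 0.03 in DND41, with no overlap between neighbours. DND41 was thus below the filter level in CD8A, and it was below HPB-ALL by at least 24.2-fold (limma adjusted p = 1.93e-14 for the measured levels). HPB-ALL combined high control levels of CD4 and of CD8A.

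CD8B depended on the probe set. With its brightest probe set, the control level was 7.89 ± 0.18 in HPB-ALL, 7.39 ± 0.34 in KOPT-K and between 4.94 and 5.53 on average in the other 3 lines. With the second it was 9.05 ± 0.09 in HPB-ALL and 5.38 ± 0.11 in KOPT-K, a level near the 5.25 ± 0.13 of T-ALL1. KOPT-K therefore exceeded T-ALL1 by 1.89 (limma adjusted p = 1.59e-05) with the brightest and by 0.13 (adjusted p = 0.611) with the second. Both probe sets are of the kind that can match several transcripts, CD8B has a near-identical paralog (CD8B2), and the cause of the disagreement was not tested. The 2 other CD8B probe sets and the second CD4 probe set stayed below the filter level.

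CD2 was lowest in DND41, where the control arrays gave 4.06 and 4.22, under the filter level. It was 9.71 ± 0.04 in KOPT-K, 8.78 ± 0.05 in HPB-ALL, 8.63 ± 0.21 in T-ALL1 and 7.88 ± 0.08 in CEM, with overlap between HPB-ALL and T-ALL1. DND41 was below CEM by at least 2.88 on the log2 scale, at least 7.35-fold (limma adjusted p = 1.33e-12 for the measured levels). CD7 was 8.73 ± 0.01 in DND41, 8.27 ± 0.10 in T-ALL1, 7.97 ± 0.07 in KOPT-K, 7.01 ± 0.08 in CEM and 6.02 ± 0.04 in HPB-ALL. Over the 4 arrays of each line, DND41, T-ALL1 and KOPT-K overlapped with their neighbours in that order. KOPT-K lay below T-ALL1 by -0.29 ± 0.09 (limma adjusted p = 0.0149), a call lost without T-ALL1 control array 1 (adjusted p = 0.106) or KOPT-K control array 1 (adjusted p = 0.0995), and not seen with the actin difference as a covariate (-0.046, adjusted p = 0.888) or with the other CD7 probe set (-0.0016, adjusted p = 0.994).

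Read line by line, DND41 had the highest mean control levels of CD1A, CD1B, CD1D and CD7 and the lowest of CD2 and CD8A. Its means of CD1C, CD4 and CD8B were also the lowest but overlapped with the next line, and with the second CD8B probe set T-ALL1 was lowest (5.25, beside 5.29 in DND41). HPB-ALL had the highest CD4 and CD8B and the lowest CD1D and CD7. KOPT-K had the highest CD1C, CD1E, CD2 and CD8A, and T-ALL1 the lowest CD1A, CD1B and CD1E. CEM was neither highest nor lowest in any of the 10. These orders set lines from both normalization sets side by side. Quantile normalization of all 20 arrays together moved the members' levels by at most 0.18, and by a median of 0.072. It aligns whole arrays and cannot show an offset of single probe sets between the sets, so the orders across sets were not tested.

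**Figure D1:**
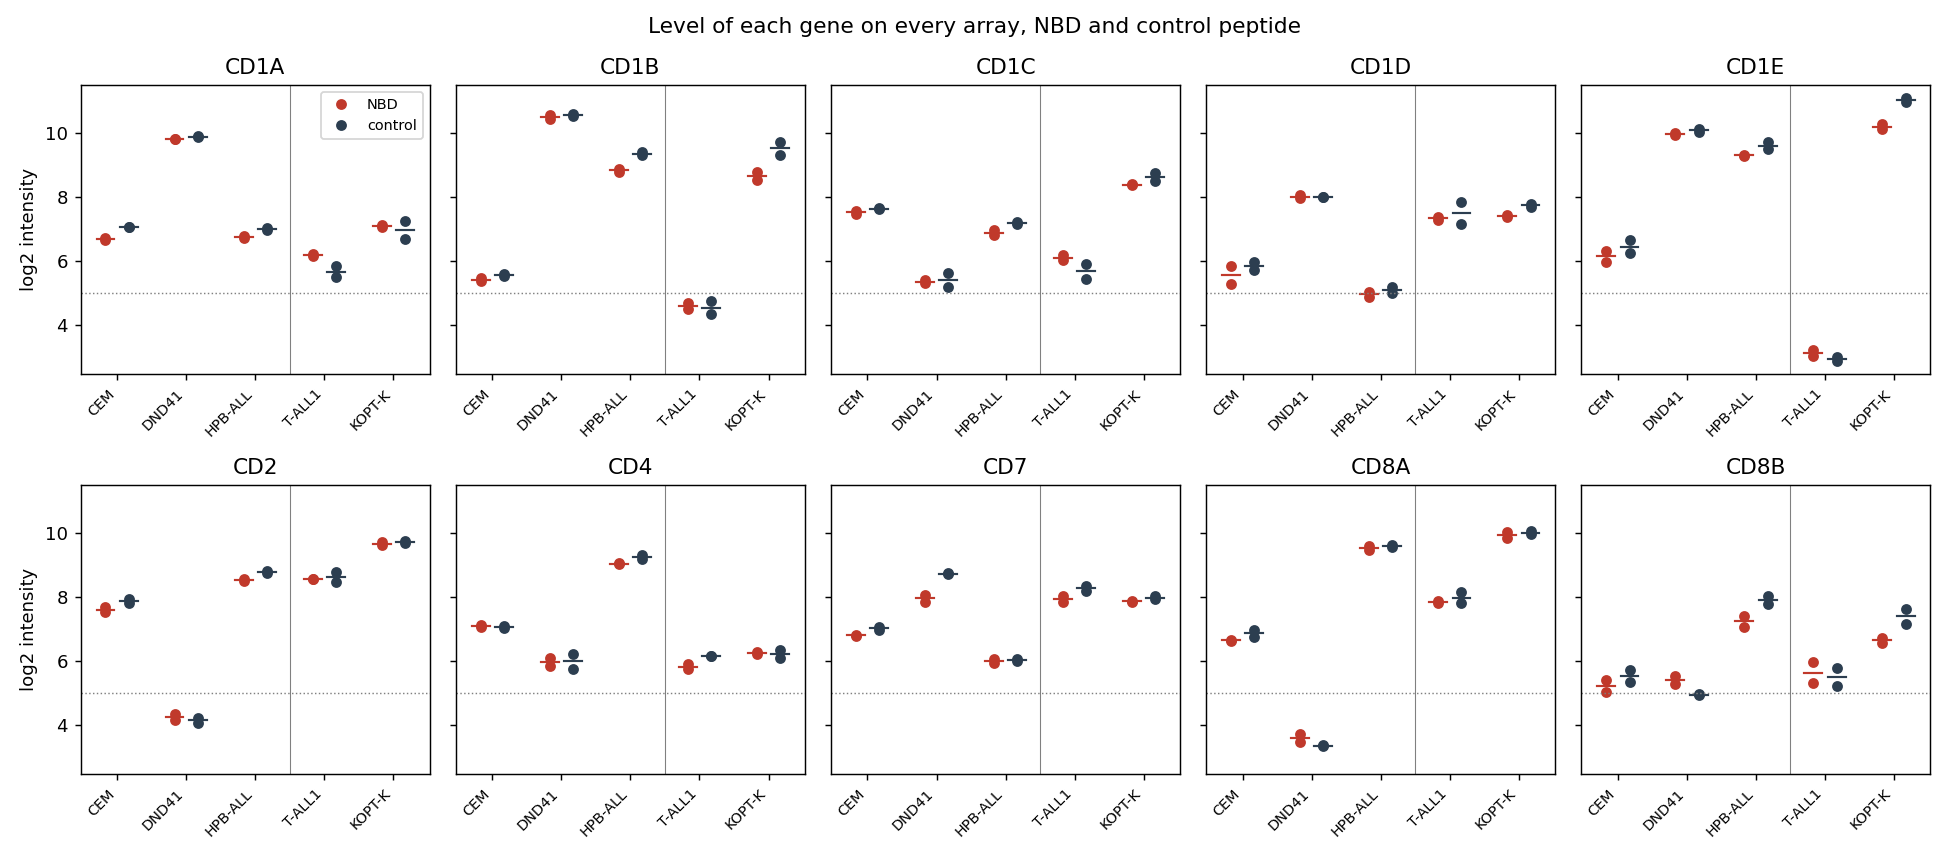
Log2 intensity of each of the 10 genes on every array, by line, with NBD arrays in red left of control arrays in dark blue. Short bars are means of 2 arrays, the dotted line is the filter level of 5, and the vertical line parts the 2 normalization sets. CD1E is highest in KOPT-K and below the filter level in T-ALL1, and in DND41 CD2 and CD8A lie below that level.

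**Figure D2:**
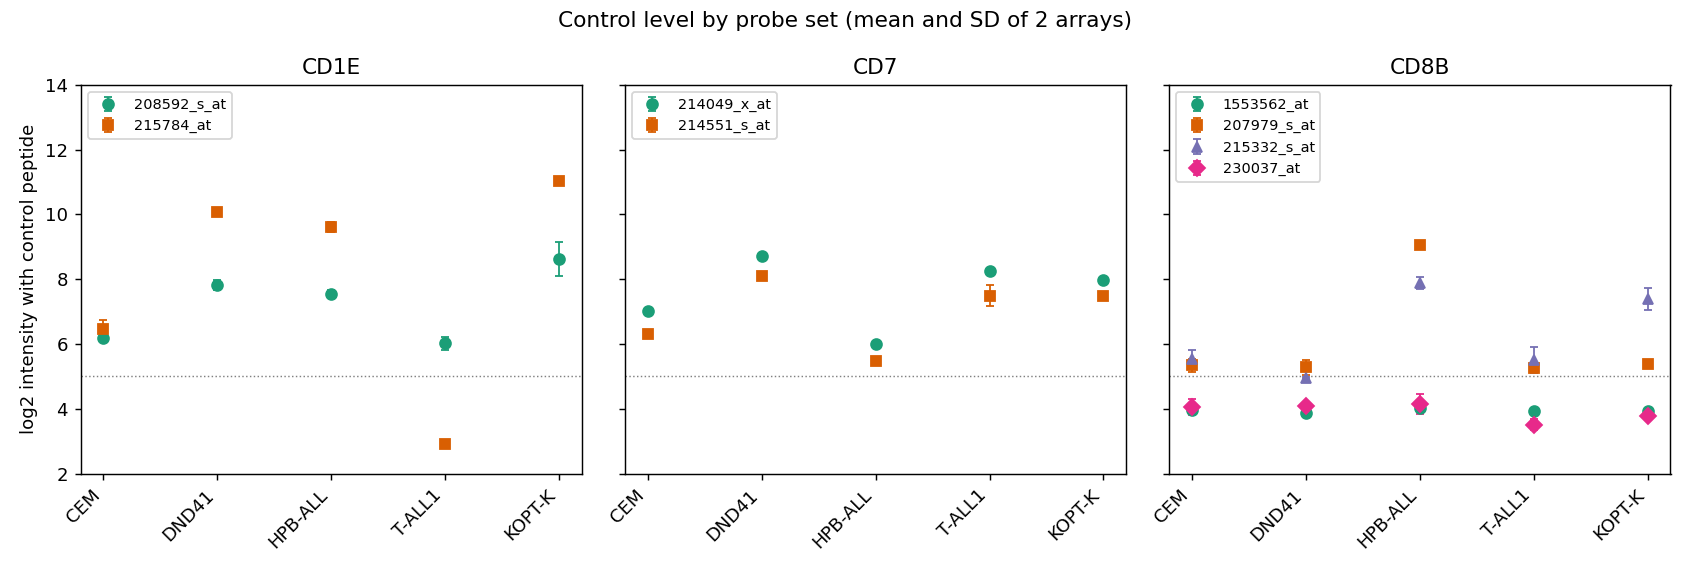
Control level (log2 intensity, mean and SD of 2 arrays) of every probe set of CD1E, CD7 and CD8B by line. Both CD1E and both CD7 probe sets keep nearly the same order of lines, while the CD8B probe sets part in KOPT-K, at 7.39 and 5.38. The dotted line is the filter level of 5.

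Levels of several members went together over the 20 arrays. Pearson's r was 0.96 for CD2 with CD8A, 0.96 for CD1D with CD7, 0.94 for CD1B with CD1E and 0.79 for CD8A with CD8B, and it was -0.93 for CD4 with CD7 and -0.87 for CD1A with CD2. The 20 arrays come from 5 lines in 2 normalization sets, so these values describe mostly 5 points. The genes whose level over the same arrays was most like CD1A were GBP4 (r = 0.981), CD79A (0.969) and ISM1 (0.959). For CD1B they were DUXAP10 (0.967), ABAT (0.963) and COPS7B (0.958), for CD4 PLEKHG1 (0.982), RIPK2 (0.981) and CLU (0.979), and for CD8A CCDC69 (0.978), MICB (0.976) and ADORA2B (0.975). All were picked for the highest r among the genes tested, so a high r followed from the choice. Control levels of GBP4 and ISM1 were under the filter level in every line but DND41 (6.50 and 8.22), so their r rests on that line. Several others were under it in some lines, such as DUXAP10 in CEM and T-ALL1. COPS7B (7.83 to 8.54) and MICB (9.65 to 10.41) varied little between lines. CD79A, a signalling chain of the B cell receptor, reached a control level of 11.46 in DND41, where CD1A was also highest, against 5.14 to 6.53 in the other lines.

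NBD lowered 3 of the 10 genes and raised none on average over the 5 lines (0 higher also at an unadjusted p under 0.05), while 6.14% of the genes tested were lower and 2.24% higher (limma, adjusted p under 0.05). CD7 fell by 18.3% on average, CD1B fell by 19.1% and CD1E fell by 17.2%. On the log2 scale these are average differences of -0.29 ± 0.04, -0.31 ± 0.06 and -0.27 ± 0.06 (SE; limma adjusted p = 0.000772, 0.00949 and 0.0142). The other probe set of CD1E averaged -0.12 and did not pass (adjusted p = 0.576), nor did that of CD7 (-0.19, 0.0912), where 4.02% of all probe sets tested were lower and 2.11% higher. CD7 was below control in all 5 lines, as were 8.81% of all genes. CD1B and CD1E were below control in 4 of 5 lines and above it in T-ALL1, where both stayed under the filter level. The other 7 members had average differences between -0.23 (CD8B, adjusted p = 0.235) and -0.016 (CD1A, adjusted p = 0.931) that did not pass. CD1D stood at -0.17 (adjusted p = 0.261), CD2 at -0.11 (0.174), CD4 at -0.096 (0.381), CD8A at -0.056 (0.592) and CD1C at -0.055 (0.714). The median of the 10 averages was -0.14, beside -0.0099 for all genes tested, and 7 of the 10 were below control in at least 4 lines, beside 27.6% of all genes. The T cell markers moved with them, since 4 of the 7 fell on average (CD3D, CD247, LCK and TRAT1) and their summed intensity ranged over 10254.5 to 28178.2 on the NBD arrays and 13127.6 to 33359.7 on the control arrays. Their part in the results for the 10 genes was not tested.

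The average calls for CD1B and CD1E were lost when KOPT-K or HPB-ALL was left out. Without KOPT-K the average of CD1B was -0.17 (limma adjusted p = 0.138) and that of CD1E -0.13 (0.326), and without HPB-ALL they were -0.25 (0.0957) and -0.26 (0.0598). The call for CD7 remained whichever line was left out. With the 5 lines as the replicates none of the 3 passed (limma adjusted p = 0.398 for CD1B, 0.454 for CD1E and 0.326 for CD7).

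Within single lines, 3 of the 50 gene-line pairs passed as lower and none as higher, beside 1.16% and 0.660% of all gene-line pairs. At an unadjusted p under 0.05, 14 pairs were lower and 2 higher. The share of all gene-line pairs at that p was not counted, so no excess is read from these 2 counts. By line, the shares of all genes that passed as lower and as higher were 0.740% and 0.392% in CEM, 1.74% and 0.733% in DND41, 0.646% and 0.138% in HPB-ALL, 2.30% and 1.15% in T-ALL1, and 0.384% and 0.892% in KOPT-K. CD7 in DND41 measured 8.07 and 7.83 on the NBD arrays and 8.72 and 8.74 on the control arrays (log2 intensity), so that both NBD arrays lay below both controls. The difference was -0.78 ± 0.09 (95% interval -0.98 to -0.58; limma adjusted p = 0.000821). The other CD7 probe set moved by the same -0.78 there (adjusted p = 0.0164). CD79A fell in DND41 as well, to 10.17 with NBD against 11.46 with control (-1.28, limma adjusted p = 0.00538). Of the other B cell markers, CD22 (-0.0043) and BLK (0.0092) did not pass there, and MS4A1 was under the filter level on every array. The summed intensity of the 4 B cell markers on the array ranged over 147.8 to 1546.4 on the NBD arrays and 132.9 to 3160 on the control arrays, and their part in the CD7 result was not tested.

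In the other lines CD7 differed less. In T-ALL1 it measured 7.84 and 8.04 with NBD against 8.33 and 8.20 with control (-0.33, limma adjusted p = 0.0682), without overlap. In CEM it measured 6.79 and 6.80 against 7.06 and 6.96 (-0.22, adjusted p = 0.319), again without overlap. The differences in KOPT-K (-0.11) and HPB-ALL (-0.026) were smaller, and the HPB-ALL arrays overlapped. CD7 was the only member whose NBD effect differed between the 5 lines by limma's moderated F-test (adjusted p = 0.0368), a test that 1.83% of all genes passed. The effect in DND41 was below that in HPB-ALL by -0.75 ± 0.13 (adjusted p = 0.0196, beside 0.551% of genes) and below that in KOPT-K by -0.67 ± 0.13 (adjusted p = 0.0309, beside 0.689%). The F-test call was lost in 13 of the 20 fits with 1 array left out (adjusted p up to 0.124).

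CD1B and CD1E fell in KOPT-K. CD1B measured 8.78 and 8.55 on the NBD arrays and 9.73 and 9.33 on the control arrays, and CD1E measured 10.29 and 10.13 with NBD and 11.10 and 10.98 with control. In both genes the NBD arrays lay below the controls without overlap. The log2 differences were -0.86 ± 0.14 for CD1B (95% interval -1.17 to -0.56; limma adjusted p = 0.00844) and -0.83 ± 0.14 for CD1E (-1.13 to -0.54; adjusted p = 0.00828). The NBD levels were thus 0.550 and 0.562 times the control levels. Both calls were lost without KOPT-K NBD array 2 (adjusted p = 0.101 for CD1B and 0.0935 for CD1E) or KOPT-K control array 1 (0.109 and 0.0983), and the other CD1E probe set gave -0.49 (adjusted p = 0.487). CD1E in T-ALL1, at 3.22 and 3.04 with NBD and 2.87 and 2.99 with control, differed by 0.20 (limma adjusted p = 0.419). The fitted NBD effect in T-ALL1 exceeded that in KOPT-K by 1.03 for CD1E (adjusted p = 0.0265, beside 0.885% of genes), but a fall cannot be read from levels under the filter level, so this difference says nothing of how the lines compare.

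HPB-ALL gave the next largest CD1B difference. There it measured 8.88 and 8.80 with NBD and 9.42 and 9.31 with control, without overlap, a difference of -0.53 ± 0.14 that did not pass (limma adjusted p = 0.133). CD8B differed by -0.76 in KOPT-K (adjusted p = 0.192) and by -0.65 in HPB-ALL (0.309), but its other probe set gave 0.013 and -0.24. In T-ALL1, CD1A measured 6.15 and 6.23 with NBD and 5.84 and 5.50 with control (0.52, adjusted p = 0.0642), and CD1C 6.03 and 6.18 against 5.92 and 5.44 (0.43, adjusted p = 0.136). The T-ALL1 control arrays are those with the raised actin 3′ to 5′ difference given above, and with that difference as a covariate the T-ALL1 values were 0.66 for CD1A (adjusted p = 0.359) and 0.81 for CD1C (0.258). With the same covariate CD7 in T-ALL1 was -0.097 (adjusted p = 0.87). In CEM, CD1A measured 6.72 and 6.66 with NBD and 7.08 and 7.07 with control (-0.38, adjusted p = 0.256).

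Counted without a test, NBD arrays lay below both control arrays in 24 of the 50 gene-line pairs and above both in 5, beside 26.5% and 20.2% of all gene-line pairs. The 10 genes had 7 such pairs below in HPB-ALL and none above (29.1% and 20.7% of all genes), 6 and none in CEM (28.2% and 21.0%), 6 and none in KOPT-K (23.6% and 18.9%), 3 below and 2 above in DND41 (27.8% and 21.6%), and 2 below and 3 above in T-ALL1 (24.0% and 18.7%). The median difference over the 10 genes was -0.26 in HPB-ALL, -0.25 in CEM, -0.18 in KOPT-K, -0.035 in DND41 and -0.0024 in T-ALL1, while the median of all genes lay between -0.017 and -0.012 in each line.

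**Figure D3:**
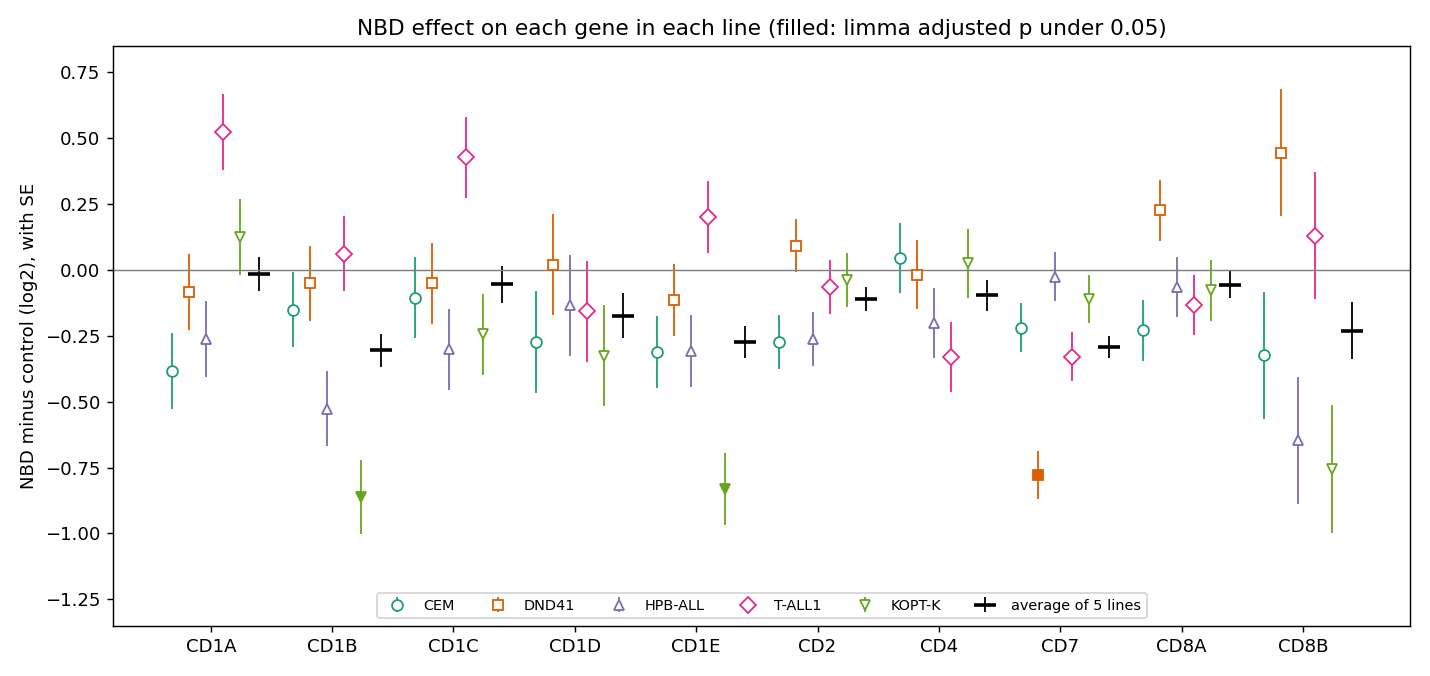
NBD minus control (log2) with its standard error for each gene in each line, and the average of the 5 lines as a black bar. Filled symbols passed limma's test at an adjusted p of 0.05, which are CD7 in DND41 and CD1B and CD1E in KOPT-K. The CD1A and CD1C differences in T-ALL1 lie above 0 and did not pass.

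**Figure D4:**
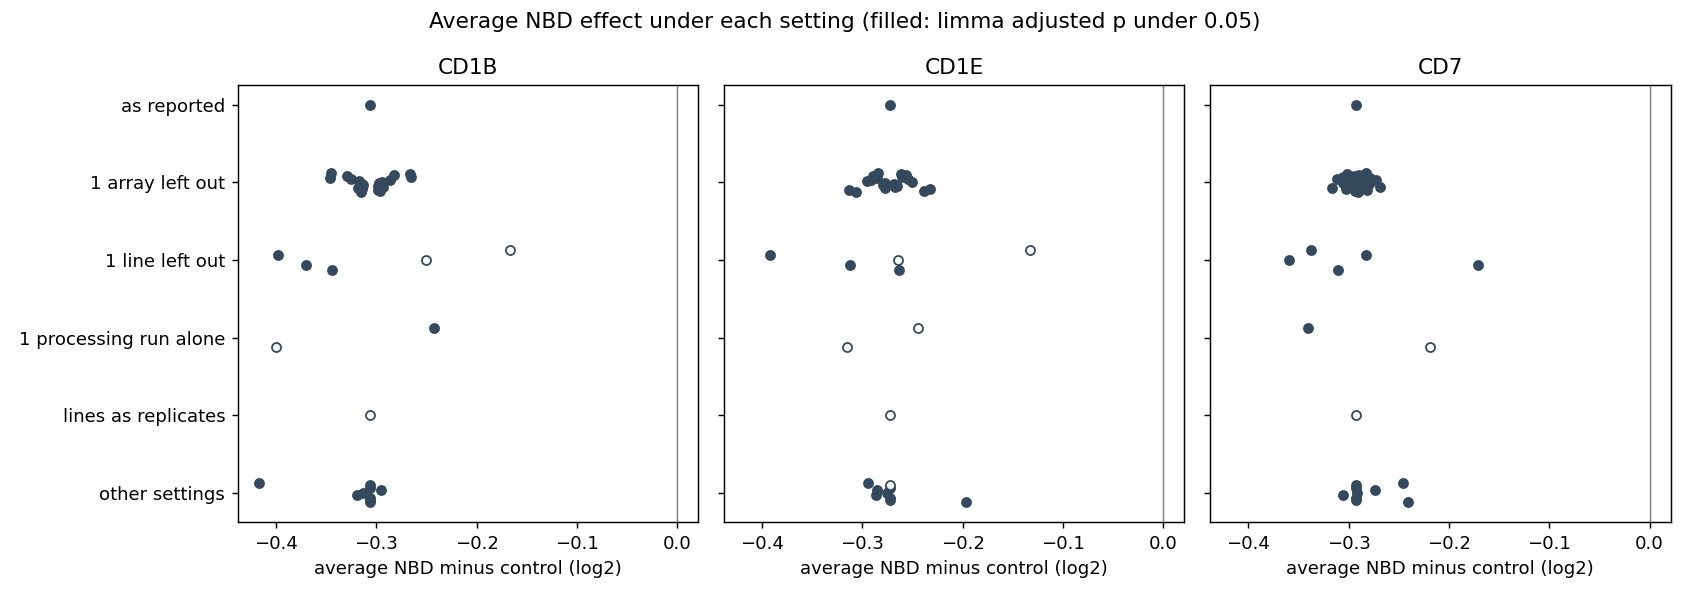
Average NBD effect (log2) on CD1B, CD1E and CD7 as reported and under each kind of alternative, with filled points where the limma adjusted p was under 0.05. Leaving out single arrays kept all 3 calls, and leaving out KOPT-K or HPB-ALL ended those of CD1B and CD1E.

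Genes of the same biology were read from 6 further lists, chosen with earlier results of these data known. Of their 52 tested genes, 14 were lower and 1 higher on average, 26.9% and 1.92%, beside 6.14% and 2.24% of all genes, and their median average was -0.087. Among 9 other cortical stage genes 4 were lower. These were CD38, an ectoenzyme (-0.28, limma adjusted p = 4.39e-05), the costimulatory receptor CD28 (-0.24, 0.0276), the transcription factor LEF1 (-0.19, 0.00163) and the chemokine receptor CXCR4 (-0.15, 0.0249). The call of CD28 was lost in 15 of 37 alternatives, 9 of them with 1 array left out, that of LEF1 in 4 of 37, among them the mean of all its probe sets (-0.064, adjusted p = 0.375), and that of CXCR4 was lost in 14 and changed sign in 2. Among 11 genes of mature T cells or the T cell receptor complex 4 were lower, which were CD3D (-0.45, adjusted p = 1.5e-06), the adaptor TRAT1 (-0.26, 0.0136), CD247 (-0.25, 0.000263) and the integrin ITGAE (-0.13, 0.00961). Others of that list rose within a line, CD69 in KOPT-K (1.02, limma adjusted p = 0.0123) and KLF2 in T-ALL1 (0.68, 0.0132), beside 0.892% and 1.15% of all genes. Their effects differed between lines (limma moderated F-test, adjusted p = 0.0278 and 0.0248), beside 1.83% of genes. Among 6 early progenitor genes none passed limma's test, and 0 had an unadjusted p under 0.05.

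Partners of the members moved in part. Of 11 tested, 3 were lower, which were LCK (-0.25, limma adjusted p = 0.0025), the CD2 family ligand CD48 (-0.22, 0.00156) and the lipid transfer protein GM2A (-0.15, 0.0194). The GM2A call was lost with the mean of all its probe sets (-0.064, adjusted p = 0.302). With its most variable probe set GM2A averaged 0.012 (0.96). B2M, the shared light chain of the CD1 proteins, stood at -0.012 ± 0.026 (adjusted p = 0.848), and the CD2 ligand CD58 at -0.11 (0.131). Among 11 regulators of coreceptor genes and T lineage fate, MYB (-0.15, adjusted p = 0.00939) and IKZF1 (-0.14, 0.00995) were lower. The MYB call was lost without CEM (-0.084, limma adjusted p = 0.235), HPB-ALL (-0.054, 0.54) or KOPT-K (-0.13, 0.0601), and MYB rose in DND41 (0.41, 0.00926). IKZF1 averaged 0.0007 with the mean of all its probe sets (0.994) and its call was lost without CEM (-0.077, 0.252). RUNX3, which silences CD4 in the CD8 lineage, stood at -0.12 (0.329) and ZBTB7B, the CD4 lineage factor, at -0.025 (0.802).

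The recombination genes did not move one way. Of 4 tested, RAG1, which cuts DNA at the receptor loci, was lower on average (-0.19, limma adjusted p = 0.00792, though 0.0011 on the log2 scale without HPB-ALL) and its partner RAG2 higher (0.15, adjusted p = 0.0434, lost in 26 of 37 alternatives). RAG1 rose with NBD in DND41 (0.61, adjusted p = 0.00227) and fell in HPB-ALL (-0.94, 6.26e-05) and KOPT-K (-0.82, 0.000132). DNTT, the terminal transferase, rose in DND41 (0.62, adjusted p = 0.0338). In CEM and T-ALL1 the RAG1 differences were 0.095 (adjusted p = 0.683) and 0.12 (0.428). CD1B differed by -0.86 in KOPT-K, -0.53 in HPB-ALL (not past the test), -0.15 in CEM and -0.051 in DND41, and was under the filter level in T-ALL1. Its effect was not shown to differ between lines (limma moderated F-test, adjusted p = 0.0795), and a link with RAG1 was not tested.

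Markers of other cells gave no call on average by limma, with 3 of the 11 tested at an unadjusted p under 0.05. For that count too, the share of all genes was not counted. Of the dendritic markers, of interest because dendritic cells carry CD1 proteins, 4 of 7 were tested and none passed. FCER1A and CD207 were under the filter level on all 20 arrays, whereas BATF3 was above it on all 20. LAMP3 had a control level of 7.94 in CEM and 5.86 in KOPT-K and was under the filter level in the other lines. ITGAX and CLEC10A were above that level on all arrays of CEM and HPB-ALL. The summed intensity of the 6 dendritic markers on the array ranged over 152.8 to 463.9 on the NBD arrays and 136.5 to 553.6 on the control arrays. No myeloid marker of the 5 on the array was above the filter on all arrays, and CD14, LYZ, CD163 and S100A8 were under it on every array. CSF1R was above it on all arrays of T-ALL1 and KOPT-K and on none of the other lines. Of the NK cell markers, 3 of 5 were tested and none passed, and their summed intensity ranged over 103.9 to 176.7 on the NBD arrays and 110.7 to 175.3 on the control arrays. NCAM1 was above the filter level on all 20 arrays, NCR1 on all arrays of HPB-ALL, T-ALL1 and KOPT-K, and KLRF1 on the T-ALL1 arrays only. Of the B cell markers, CD22 was above that level on all 20 arrays and BLK on the arrays of CEM and DND41 only. CD79A was above it on 3 T-ALL1 arrays and on all arrays of the other lines.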

How the data were processed

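Transcript levels were measured on 20 arrays, and each sample's group comes from its title. The values deposited by the authors are linear intensities of 54675 probe sets. RMA, a robust average over arrays, is the method named in the submitters' processing notes, and no version or background setting is given in the sources used here. Per the labels' protocols, labelling with biotin started from 20 ng of total RNA and amplified it more than once, which favours 3′ ends. Log2 of the deposited intensity was taken here without a pseudocount, although a log2 table had been foreseen. Precision is limited by the number of arrays.

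Gene symbols came from the platform's annotation, which gave 41097 a single symbol, 1801 several and 11777 none. Of the single symbols, 41043 were found in a RefSeq gene table and updated there. Only probe sets with 1 symbol were used, and a gene was tested if its probe set with the highest mean reached an intensity of 31.96 (the median of all values) on 2 arrays. Tests used limma 3.58.1 (lmFit, eBayes; R 4.3.3; 10 groups, 10 residual and 3.42 prior degrees of freedom) with Benjamini-Hochberg adjustment over the 13787 genes of each contrast. Tests by probe set ran over 26260 probe sets.

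All members were named whatever their values. Of each further list, up to 4 genes past the threshold with the largest average change were named, with B2M, LCK and CD3D in any case. For CD1A, CD1B, CD4 and CD8A the 3 other genes with the highest r over the arrays were named. CD58, RUNX3, ZBTB7B, DNTT, MME, CD69, KLF2 and the marker genes were named after their values were seen. The members and lists were chosen with earlier results of these data known. The fits were checked on simulated data. Alternatives changed the probe set rule, filter, pseudocount, normalization, prior, blocks, actin covariate, arrays and lines.

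Same-numbered arrays of a line did not deviate together (r = -0.281 to 0.143 over genes), so the numbers were not used as pairs.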

Additional observations from a re-analysis of the deposited data

Results flagged for a closer look

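The NBD effect on CD7 differed between the lines (limma moderated F-test, adjusted p = 0.0368). In DND41 it was below the effect in HPB-ALL by -0.75 on the log2 scale and below that in KOPT-K by -0.67. Both differences passed their test. The F-test call of CD7 was lost with no filter on low values (adjusted p = 0.0641) and with the most variable probe set (0.0563). It was also lost with the replicate number as a block (0.239). The effect on CD1E in T-ALL1 exceeded that in KOPT-K by 1.03, with CD1E under the filter level on every T-ALL1 array, where a fall cannot be read, and the F-test over all 5 lines did not pass for CD1E (adjusted p = 0.0711).

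Among the other named genes, the effect differed between lines for RAG1 (F-test adjusted p = 7.24e-05), MYB (0.00102), CXCR4 (0.00458), KLF2 (0.0248), CD38 (0.0261), CD69 (0.0278) and LEF1 (0.042). RAG1, MYB and CXCR4 rose with NBD in DND41 (0.61, 0.41 and 0.39). RAG1 fell in HPB-ALL and KOPT-K (-0.94 and -0.82), MYB in HPB-ALL and CEM (-0.55 and -0.43) and CXCR4 in T-ALL1 (-0.63). CD38 fell in HPB-ALL and CEM (-0.59 and -0.37) and LEF1 in HPB-ALL (-0.51), while KLF2 rose in T-ALL1 (0.68) and CD69 in KOPT-K (1.02). No group held enough arrays to look for single arrays that stood apart.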

How the results depend on the processing

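The counts below are of members, beside those reported. Shares of all genes under the same alternatives are not given, so a change in the members cannot be told from a change over all genes. Members lower on average numbered 3 as reported, 1 without the HPB-ALL line, 1 without the KOPT-K line, 0 in the T-ALL1 and KOPT-K arrays alone and 0 with lines as replicates. Gene-line pairs lower numbered 1 (2 reported over the same lines) in the T-ALL1 and KOPT-K arrays alone and 3 (1 reported) in the CEM, DND41 and HPB-ALL arrays alone, and 1 to 4 with 1 array left out. Pairs higher numbered 1, CD1A in T-ALL1, with the mean of all probe sets, with a trended robust prior and without the KOPT-K line, and 0 to 1 with 1 array left out. Members past the F-test numbered 0 with the most variable probe set, with no filter, in the T-ALL1 and KOPT-K arrays alone and without the DND41 or the HPB-ALL line, 3 with 16 added to each intensity or a trended robust prior, and 0 to 3 with 1 array left out. Leaving lines out of the tests within lines, of the F-test and of the line contrasts was chosen after seeing the data. With the replicate number as a block, 0 members passed the F-test (CD7 adjusted p = 0.239), and the calls of CD1E were lost on average (adjusted p = 0.0829) and in KOPT-K (0.118). The averages of RAG1, RAG2, CXCR4, TRAT1, ITGAE, MYB, IKZF1 and GM2A also lost their calls under it (adjusted p = 0.0526 to 0.122). It changed no other call among the members' NBD effects and F-tests and the named genes' averages, and was not run for the control levels or for the further genes within lines. CD7 in DND41 passed under every alternative run. The F-test of CD7 passed without CEM control 1, DND41 NBD 1, KOPT-K control 2 or any T-ALL1 array, and was lost without each other array. Without 1 array, CD1D passed on average without T-ALL1 control 2 (-0.24, adjusted p = 0.0291), CD2 on average without T-ALL1 control 1 (-0.14, 0.0407), CD7 in T-ALL1 without its control 2 or either DND41 NBD array (adjusted p = 0.0216 and 0.0489), and CD1A in T-ALL1 without either KOPT-K control (0.0139). In the CEM, DND41 and HPB-ALL arrays alone, CD1A passed on average (-0.24, 0.00499) and in CEM (-0.38, 0.0158), and CD1B in HPB-ALL (-0.53, 0.017). The average call of CD1E was lost there (-0.24, limma adjusted p = 0.126) and also in the T-ALL1 and KOPT-K arrays alone (-0.32, 0.213). A fit with 1 array left out leaves a lone array in its group, assumed to vary like the others, and the causes of these changes were not tested. Calls for control levels numbered 34 to 37 wherever all 40 contrasts could be run.

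Several differences changed sign, of which RAG1, RAG2, CXCR4, IKZF1 and GM2A had passed as reported. With the actin difference as a covariate, averages became 0.012 for CD1A, 0.021 for CD1C, 0.0011 for CD1D, 0.047 for CD8A and 0.0017 for B2M, and in T-ALL1 CD1B became -0.50, CD1D 0.73 and CD8A 0.39. In the T-ALL1 and KOPT-K arrays alone, averages were 0.32 for CD1A, 0.092 for CD1C and -0.11 for RAG2. The average of CD1A was 0.076 without CEM, 0.0011 without DND41 and 0.045 without HPB-ALL, that of CD1C 0.0067 and of RAG1 0.0011 without HPB-ALL, and that of B2M 0.0018 without DND41. With the mean of all probe sets, averages were 0.039 for CD4, 0.032 for B2M, 0.0003 for CXCR4 and 0.0007 for IKZF1, and CD4 gave 0.044 in DND41 and 0.053 in HPB-ALL, CD7 0.066 in HPB-ALL and CD8B -0.056 in DND41. With the most variable probe set, averages were 0.098 for B2M, 0.039 for CXCR4 and 0.012 for GM2A, and CD8B gave -0.18 in DND41 and 0.013 in KOPT-K. Quantile normalization gave CD1D -0.018 in DND41. With 1 array left out, the average of CD1A ranged over -0.074 to 0.042. In DND41 the ranges were -0.12 to 0.014 for CD1B, -0.27 to 0.17 for CD1C, -0.024 to 0.063 for CD1D, -0.0082 to 0.19 for CD2 and -0.26 to 0.22 for CD4. In T-ALL1 they were -0.14 to 0.26 for CD1B, -0.50 to 0.18 for CD1D, -0.22 to 0.086 for CD2, -0.30 to 0.038 for CD8A and -0.19 to 0.45 for CD8B. In KOPT-K they were -0.16 to 0.41 for CD1A, -0.074 to 0.0007 for CD2, -0.091 to 0.14 for CD4 and -0.16 to 0.0089 for CD8A. CD1D in CEM ranged over -0.55 to 0.0046 and CD7 in HPB-ALL over -0.090 to 0.039. With the actin covariate the KOPT-K minus T-ALL1 control level of CD1D passed (1.18, adjusted p = 0.0108). With 1 array left out, the KOPT-K minus T-ALL1 control level ranged over -0.10 to 0.58 for CD1D and -0.049 to 0.18 for CD4. Of the 4301 values of single genes under alternatives, 4049 kept their sign and their side of the threshold.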

Other observations

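DND41 was the line with the most CD1A and with CD2 and CD8A below the filter level. With NBD, several genes of the further lists rose there and others fell. Of the 4 recombination genes 3 rose there, which were DNTT (0.62), RAG1 (0.61) and RAG2 (0.44, limma adjusted p = 0.0293), beside 0.733% of all genes. Of 9 cortical stage genes 2 rose, which were the endopeptidase MME (0.85, adjusted p = 0.00868) and CXCR4 (0.39, adjusted p = 0.0267), and none fell. Of 11 genes of mature T cells or the T cell receptor complex 3 fell, beside 1.74% of all genes, and none rose. These were CD3D (-0.72, limma adjusted p = 0.000199), CD247 (-0.34, 0.0196) and ITGAE (-0.30, 0.0196). CD3D and CD247 are also among the 7 T cell markers above the filter on all 20 arrays, and a link of their fall with stage was not tested. By the F-test between the 5 lines, the difference in effect did not pass for MME (adjusted p = 0.0504), RAG2 (0.0524), DNTT (0.109), CD3D (0.0697), CD247 (0.279) or ITGAE (0.284), so these changes are not shown to differ between DND41 and the other lines. CD3D also fell in HPB-ALL (-0.41, adjusted p = 0.0145), T-ALL1 (-0.53, 0.00193) and KOPT-K (-0.40, 0.0115), CD247 fell in HPB-ALL (-0.41, 0.0145), and RAG2 rose in CEM (0.44, 0.0442). The genes were read from lists chosen with earlier results known.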
